A study of Mus musculus with 24 samples.

Results

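The genes described here encode ligands, receptors and signal carriers of the Wnt, BMP and TGF-beta, FGF, Hedgehog and IGF pathways. They were chosen by symbol from a fixed pattern of names, among probes that carry exactly 1 gene symbol in the platform annotation. The pattern found 42 of the 6970 genes on such probes. Of these, 19 belong to the BMP and TGF-beta family, 8 to Wnt, 6 to Hedgehog, 5 to FGF and 4 to IGF signalling. The pattern also asked for Notch receptors and their Dll and Jag ligands, and found 0. A further 5 probes carried the name of such a gene beside that of another gene (Bmp6, Fgf22, Dvl3 and, on 2 probes, Acvr2a) and were not used. Of the 42, 5 were counted as matches by name only: Ctnnbl1, Bmp2k, Tgfbrap1, Tgfb1i1 and Fgfr1op2 were not taken as core parts of these pathways. For Tgfbrap1 and Tgfb1i1 this was a choice, as the gene lists used here also placed them with BMP and TGF-beta genes.

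Cultured mouse embryos of a stage not given in the sources used here were heated to 43 °C for 15 min, put back at 37 °C and taken 1 h later. Control embryos stayed at 37 °C and were not heated. Total RNA of both went onto 24 arrays with 2 channels: 3 numbered treatments, 2 slide types with different probes, and 4 arrays per treatment and slide type, with the heat-shocked RNA in channel 1 on some and in channel 2 on the others. Strain, genotype and the number of pooled embryos are likewise not given in the sources used here, and no label states that embryos of the 3 treatments were of separate litters. The p-values therefore measure only spread between these 3 treatments. For them, each gene's spread was moderated by a spread pooled over all genes of its slide type. The SDs given are each gene's own, so a p-value can be smaller than its SD alone would give.

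These pathways pass signals between neighbouring cells and pattern the early embryo. In Hedgehog signalling, the receptor Ptch1 holds the membrane protein Smo inactive until a ligand binds, with Gas1 as a coreceptor, and Smo then releases the Gli transcription factors from their inhibitor Sufu. BMP and TGF-beta ligands join receptor pairs that phosphorylate Smad proteins, which enter the nucleus with the shared partner Smad4. Wnt ligands bind Frizzled receptors and spare beta-catenin (Ctnnb1) from the destruction complex built on Axin1. FGF and IGF ligands act through receptor tyrosine kinases and support growth.

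The 4 Hedgehog genes that passed the test below (Gas1, Smo, Ptch1 and Sufu) lay on the same side, so the 250 bases before each start are shown here, 5′ to 3′ on the gene's own strand, from RefSeq (GRCm38.p6). The windows are chr13:60177536-60177785 (minus strand) for Gas1, chr6:29735247-29735496 (plus) for Smo, chr13:63565736-63565985 (minus) for Ptch1 and chr19:46396646-46396895 (plus) for Sufu. Capitals mark a match to a short heat shock element pattern (GAANNTTC or TTCNNGAA) or a GC box (GGGCGG), each searched on both strands.
Gas1: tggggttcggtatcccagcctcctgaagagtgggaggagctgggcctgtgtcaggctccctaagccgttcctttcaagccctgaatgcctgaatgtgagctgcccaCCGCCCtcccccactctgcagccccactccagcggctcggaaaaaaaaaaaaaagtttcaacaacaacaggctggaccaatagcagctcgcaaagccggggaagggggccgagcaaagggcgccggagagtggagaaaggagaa
Smo: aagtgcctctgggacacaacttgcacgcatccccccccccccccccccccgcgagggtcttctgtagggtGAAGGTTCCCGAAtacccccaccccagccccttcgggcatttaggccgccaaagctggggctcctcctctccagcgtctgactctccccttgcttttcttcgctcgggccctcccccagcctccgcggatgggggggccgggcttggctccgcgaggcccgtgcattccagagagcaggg
Ptch1: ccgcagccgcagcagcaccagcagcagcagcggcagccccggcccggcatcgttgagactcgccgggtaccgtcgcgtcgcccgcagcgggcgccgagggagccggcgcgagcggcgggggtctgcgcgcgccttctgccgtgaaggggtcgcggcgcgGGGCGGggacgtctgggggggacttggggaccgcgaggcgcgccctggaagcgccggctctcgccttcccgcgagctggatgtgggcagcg
Sufu: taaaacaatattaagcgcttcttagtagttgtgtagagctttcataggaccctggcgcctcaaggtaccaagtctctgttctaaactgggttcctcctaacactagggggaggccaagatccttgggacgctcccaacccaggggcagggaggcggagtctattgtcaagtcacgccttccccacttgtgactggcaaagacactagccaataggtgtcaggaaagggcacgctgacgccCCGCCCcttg
The Smo window held 2 matches to the heat shock element pattern, GAAGGTTC from base −180 and TTCCCGAA from base −175 (counted from the start of the gene). They overlap and form 1 stretch, so they are not 2 separate sites. The Gas1, Ptch1 and Sufu windows held none and each held 1 GC box. Of 27025 genes in the promoter table, 14.5% had at least 1 match to the heat shock element pattern in such a window. So did 5 of the 34 members found in the table (Fgfr1op2, Igf2, Smad1, Smo and Tgfbr1). A GC box was present for 28 of these 34 members and for 35.4% of the 27025 genes. These 27025 are not limited to genes measured on the slides, so the shares are not of like sets. These matches describe letters only.

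Values are the authors' log ratios, with the sign set so that positive values mean relatively more RNA in heat-shocked embryos, provided that the authors divided channel 1 by channel 2. No source used here states this. The base of the log is not stated either, so 1 unit is 2-fold in base 2 and 2.72-fold in natural log. Under this convention the heat shock protein genes Hsph1 (slide type 1) and Hspb1 (slide type 2) lay on the positive side, at 2.28 ± 0.50 and 2.23 ± 0.05 (SD, n = 3 treatments). Hspb1 read 2.18, 2.28 and 2.24 in treatments 1, 2 and 3. On slide type 2, the pair of arrays least alike with heat-shocked RNA in channel 1 (from treatments 1 and 2) correlated at r = −0.34 over all probes. That correlation does not show which channel was the numerator, so the direction rests on the convention above. If the sign of all arrays is turned, each member below changes side and every size and p-value stays as given. Hsph1 and Hspb1, each with the highest mean of all genes on its slide type, would then have the lowest. If the channel order of some arrays alone were not as labelled, sizes and p-values would change too, which was not tested. Since the median probe of every array was set to 0, a value says where a gene lay relative to the other probes. Treatments correlated with each other over genes at r of 0.57 to 0.70 on slide type 1 and 0.79 to 0.89 on slide type 2.

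On slide type 2, 13 of the 32 members passed the test on the negative side and 0 on the positive side (limma, Benjamini-Hochberg adjusted p under 0.05 over all 4075 genes). Over all genes of that slide type, 31.9% passed on the negative side and 18.5% on the positive side, 50.4% in all. The members' median was −0.13, against −0.05 for all genes, with a range of −1.21 to 0.14. Without the members counted as matches by name only, 10 of 28 passed on the negative side and 0 on the positive. With the sign turned, 13 members would lie on the positive side, against the same 31.9%. Before adjustment, 3 members of slide type 2 had a limma p under 0.05 above 0 (Axin1, Bmp15 and Wnt4) and 16 below. The split depended on the centring: centred on probes with 1 symbol, 8 members passed on the negative side (21.1% of all genes) and 5 on the positive (30.7%). Without centring only Gas1 passed, with 1.6% of all genes on the negative side. On slide type 1, 0 of the 17 members passed on either side, where 5.73% of 3838 genes passed above 0 and 5.65% below. Their median was −0.09 (−0.04 for all genes), with a range of −0.19 to 0.14. Before adjustment, 4 of the 17 had a limma p under 0.05: Bmp4 on the positive side and Acvr2b, Fzd7 and Ctnnb1 on the negative.

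**Figure D1:**
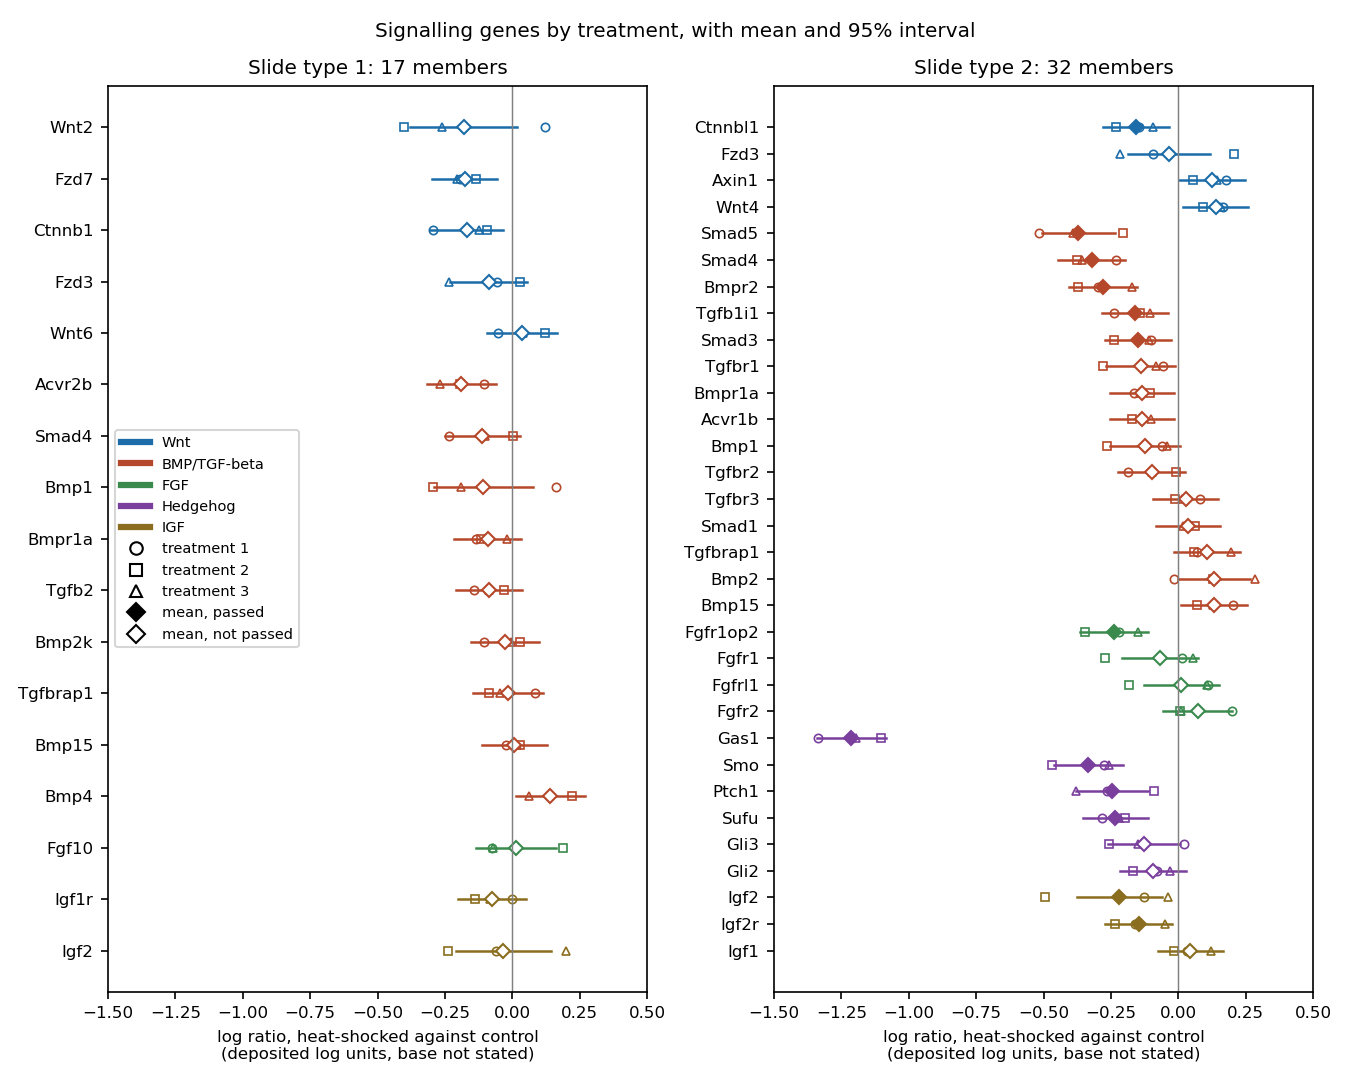
Log ratio of every member on slide type 1 (left, 17 genes) and slide type 2 (right, 32 genes), by pathway, in deposited log units. Small open symbols are the 3 treatments, diamonds their mean (filled where the adjusted p was under 0.05) and bars the 95% interval from limma. All 13 filled diamonds lie left of 0 on slide type 2 under the centring shown, and Gas1 stands apart at −1.21, while the other members lie between −0.37 and 0.14.

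Gas1, the Hedgehog coreceptor that also carries the name growth arrest specific, had the largest value of any member. Its log ratios were −1.34, −1.10 and −1.20 in treatments 1, 2 and 3. All 3 treatments lay far below 0, and so did each of the 12 arrays, from −1.57 to −0.55. The mean was −1.21 ± 0.12 (SD, n = 3, adjusted p = 2.02e-10), a ratio of 2.32 if the log is base 2 and of 3.36 if natural. Of the 4075 genes of slide type 2 it had the third lowest mean, or the third highest with the sign turned. With heat-shocked RNA in channel 1 it averaged −1.06, and in channel 2 −1.37. Fewer cells of a type and less RNA per cell cannot be told apart in RNA from whole embryos, and log ratios hold no levels, so neither the cells that carried Gas1 nor its abundance could be read from these values.

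The other Hedgehog receptors lay on the same side at smaller size. Smo, which carries the signal across the membrane, stood at −0.28, −0.47 and −0.26 in treatments 1, 2 and 3. All 3 treatments were below 0, with a mean of −0.33 ± 0.12 (SD, n = 3, adjusted p = 0.0004). In treatment 2, however, it lay above 0 on the arrays that held heat-shocked RNA in channel 1 (0.16 and 0.17) and far below on those that held it in channel 2 (−1.08 and −1.13). Ptch1, the ligand receptor and itself a target of the pathway, stood at −0.27, −0.09 and −0.38. Its mean was −0.25 ± 0.15 (SD, n = 3, adjusted p = 0.0048), and 9 of 12 arrays were below 0. In treatment 2 only 1 array lay below 0, at −0.81, and the others read 0.04 to 0.24. That array held heat-shocked RNA in channel 2 and had no suffix in its slide code. Without treatment 3 Ptch1 did not pass (−0.18, adjusted p = 0.1).

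Inside the cell, the Gli inhibitor Sufu varied little between treatments, at −0.28, −0.20 and −0.22. Its mean was −0.23 ± 0.04 (SD, n = 3, adjusted p = 0.0033), and 11 of 12 arrays were below 0, the exception being one of treatment 2 at 0.04. The treatment 2 value rested largely on 1 array, which read −0.69 against −0.14 to 0.04 on the others. It was the array on which Ptch1 read −0.81, and Gli3 read −0.88 there. The Gli transcription factors at the end of the pathway did not pass. Gli2 stood at −0.08, −0.17 and −0.03 (adjusted p = 0.18). Gli3 stood at 0.02, −0.26 and −0.15 (adjusted p = 0.096), with treatment 1 just above 0 and the other two below. In all, 4 of the 6 Hedgehog members passed on the negative side, where 31.9% of all genes did, with a median of −0.24. The same 4 passed with arrays centred on probes with 1 symbol, but without centring only Gas1 did, and with arrays scaled to a common spread Ptch1 and Sufu did not. All 6 were on slide type 2, so none could be checked on other probes.

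**Figure D2:**
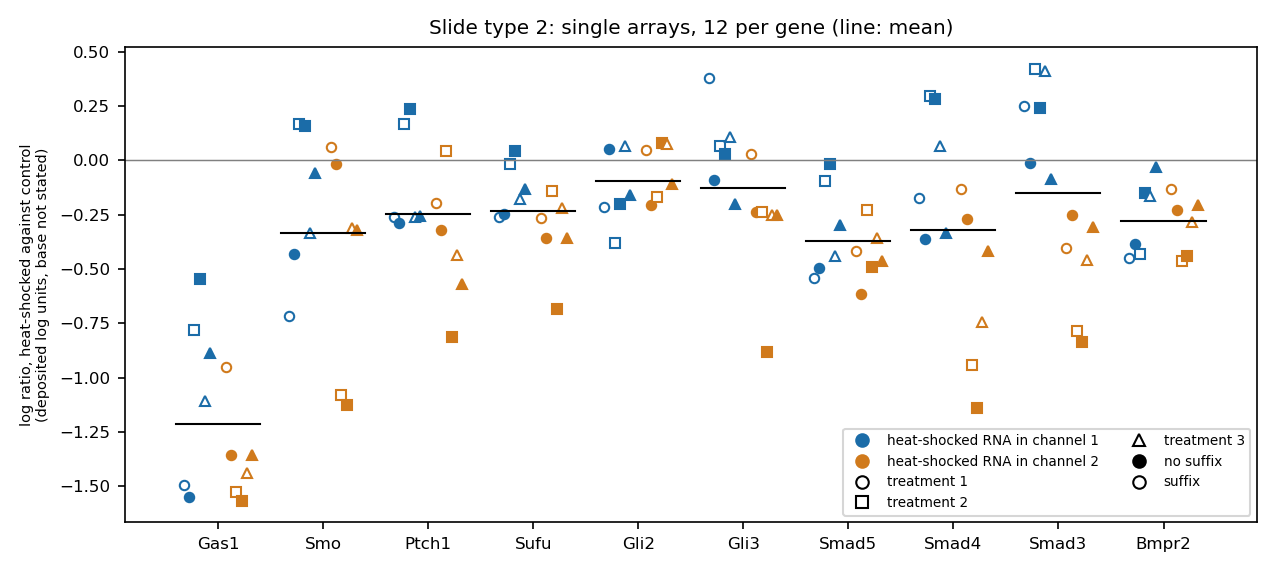
Log ratios (deposited log units) of 10 Hedgehog and Smad pathway members on each of the 12 arrays of slide type 2. Colour marks the channel of the heat-shocked RNA, shape the treatment, filled symbols arrays without and open symbols arrays with a suffix in the slide code, and the line is the mean. Gas1, Smad5 and Bmpr2 lie below 0 on all 12 arrays, while in treatment 2 Smo, Smad4 and Smad3 lie above 0 with heat-shocked RNA in channel 1 and between −1.14 and −0.79 with it in channel 2.

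Among the Smad proteins on slide type 2, 3 of 4 passed on the negative side (31.9% of all genes did). Smad5, which carries BMP signals, stood at −0.52, −0.21 and −0.39. No treatment reached 0, nor did any of the 12 arrays (−0.61 to −0.01), and the mean was −0.37 ± 0.16 (SD, n = 3, adjusted p = 0.00027). Smad4, the partner shared by all receptor-activated Smads, stood at −0.23, −0.38 and −0.36, with a mean of −0.32 ± 0.08 (SD, n = 3, adjusted p = 0.00037). Its channel orders differed, at −0.04 with heat-shocked RNA in channel 1 and −0.61 in channel 2. Smad3, which carries TGF-beta and activin signals, stood at −0.10, −0.24 and −0.11 (mean −0.15 ± 0.08, SD, n = 3, adjusted p = 0.04). Its orders lay on opposite sides, at 0.20 and −0.51, and it did not pass when any 1 treatment was left out (−0.18 to −0.11, adjusted p of 0.0995 to 0.12). Smad1, which carries BMP signals as Smad5 does, stood at 0.03, 0.06 and 0.02 (adjusted p = 0.6).

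Of the 6 BMP, activin and TGF-beta receptors on slide type 2, only Bmpr2 passed. This type II BMP receptor stood at −0.30, −0.37 and −0.17, and below 0 on each of the 12 arrays (−0.46 to −0.03). Its mean was −0.28 ± 0.10 (SD, n = 3, adjusted p = 0.0013), and both channel orders gave nearly the same value, −0.27 and −0.29. Its type I partner Bmpr1a lay just outside the threshold at −0.16, −0.11 and −0.14 (adjusted p = 0.053). The activin receptor Acvr1b was alike, at −0.13, −0.17 and −0.10 (adjusted p = 0.055). With the treatment as a replicate block, Bmpr1a, Acvr1b and Tgfbr1 passed on the negative side. Tgfbr1 averaged −0.14 (adjusted p = 0.065), but its 2 probes disagreed, at −0.35 ± 0.06 and 0.07 ± 0.25 (SD over 3 treatments). Tgfbr2 stood at −0.10 and the coreceptor Tgfbr3 at 0.03. The activin receptor Acvr2b, on slide type 1, stood at −0.11, −0.19 and −0.27, below 0 in all 3 treatments and on 11 of 12 arrays, and missed the threshold (mean −0.19 ± 0.08, SD, n = 3, adjusted p = 0.064).

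None of the ligands and secreted proteins of this family passed. Bmp4, a ligand of early mesoderm, had the highest mean of the slide type 1 members at 0.14, 0.22 and 0.06 (mean 0.14 ± 0.08, SD, n = 3, adjusted p = 0.16). Bmp2 on slide type 2 stood at −0.02, 0.13 and 0.28 (adjusted p = 0.094). Its channel orders lay far apart: with heat-shocked RNA in channel 1 Bmp2 averaged −0.37, and in channel 2 0.63. The oocyte factor Bmp15 stood at 0.13 on slide type 2 (adjusted p = 0.064) and 0.01 on slide type 1. Bmp1, which despite its name is a protease that trims procollagen, stood at −0.12 and −0.11 on the slide types 2 and 1. Tgfb2 stood at −0.09. Of the members counted as matches by name only, the adhesion adaptor Tgfb1i1 passed at −0.24, −0.14 and −0.10 (mean −0.16 ± 0.07, SD, n = 3, adjusted p = 0.029). It lost its call when treatment 1 (−0.12, adjusted p = 0.26) or treatment 3 (−0.19, adjusted p = 0.082) was left out. Bmp2k, a kinase of endocytosis and also a match by name only, stood at −0.03 on slide type 1.

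No Wnt ligand or Frizzled receptor passed, and neither did Ctnnb1 or Axin1. Of those on slide type 1, Wnt2 stood at 0.12, −0.40 and −0.26, with treatments on both sides of 0, and Wnt6 at −0.05, 0.12 and 0.04. The receptor Fzd7 was more even, at −0.19, −0.13 and −0.20 (mean −0.18 ± 0.04, SD, n = 3, adjusted p = 0.066), but averaged 0.07 with heat-shocked RNA in channel 1 and −0.42 in channel 2. Ctnnb1, the beta-catenin gene, stood at −0.29, −0.09 and −0.12 (mean −0.17 ± 0.11, SD, n = 3, adjusted p = 0.11). On slide type 2, Wnt4 stood at 0.17, 0.09 and 0.16 over 3 probes (adjusted p = 0.053), the probe means being 0.07, 0.15 and 0.20. Its channel orders lay on opposite sides (−0.11 and 0.38). The scaffold Axin1 stood at 0.18, 0.05 and 0.14 (adjusted p = 0.083), and Fzd3 at −0.09, 0.21 and −0.22. Axin1 and Wnt4 did pass with arrays centred on probes with 1 symbol (Axin1 0.20, adjusted p = 0.008). Axin1 also passed with the treatment as a replicate block (adjusted p = 0.04), and both passed without treatment 2 (Axin1 0.16, adjusted p = 0.028). The 1 Wnt-named gene that passed, Ctnnbl1, is a splicing-associated protein and not a beta-catenin. It stood at −0.14, −0.23 and −0.09 (adjusted p = 0.033), had channel orders on opposite sides (0.20 and −0.52), and did not pass when any 1 treatment was left out (−0.19 to −0.12, adjusted p of 0.085 to 0.13) or with the treatment as a replicate block (adjusted p = 0.059).

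None of the 3 FGF receptors passed. Fgfr1 stood at 0.01, −0.27 and 0.06, with treatment 2 alone below 0 (adjusted p = 0.4). Fgfr2 stood at 0.20, 0.00 and 0.01, with 2 probes at −0.0046 and 0.15, and Fgfrl1, a receptor without the kinase, at 0.11, −0.18 and 0.11. The ligand Fgf10, on slide type 1, stood at −0.07, 0.19 and −0.07. The 1 FGF-named gene that passed was Fgfr1op2, named for a fusion partner of Fgfr1, at −0.22, −0.35 and −0.15 (mean −0.24 ± 0.10, SD, n = 3, adjusted p = 0.0039). Its channel orders lay on opposite sides, at 0.03 and −0.50.

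Of the IGF members on slide type 2, 2 of 3 passed on the negative side (31.9% of all genes did). The imprinted fetal growth factor gene Igf2 stood at −0.13, −0.49 and −0.04, so that treatment 2 lay well below the others. Its mean was −0.22 ± 0.24 (SD, n = 3, adjusted p = 0.022), and without treatment 2 it did not pass (−0.083, adjusted p = 0.23). In that treatment it read 0.13 and 0.32 where channel 1 held the heat-shocked RNA, and where channel 2 held it −1.29 and −1.13. Its clearance receptor Igf2r stood at −0.16, −0.23 and −0.05 (adjusted p = 0.047) and did not pass when any 1 treatment was left out (−0.20 to −0.10, adjusted p of 0.07 to 0.19), nor with the treatment as a replicate block (adjusted p = 0.075). It kept its call under 2 of 13 other settings and Igf2 under 6. Igf1 stood at 0.03, −0.02 and 0.12. The kinase receptor Igf1r, on slide type 1, stood at −0.0007, −0.14 and −0.08 (adjusted p = 0.47).

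**Figure D3:**
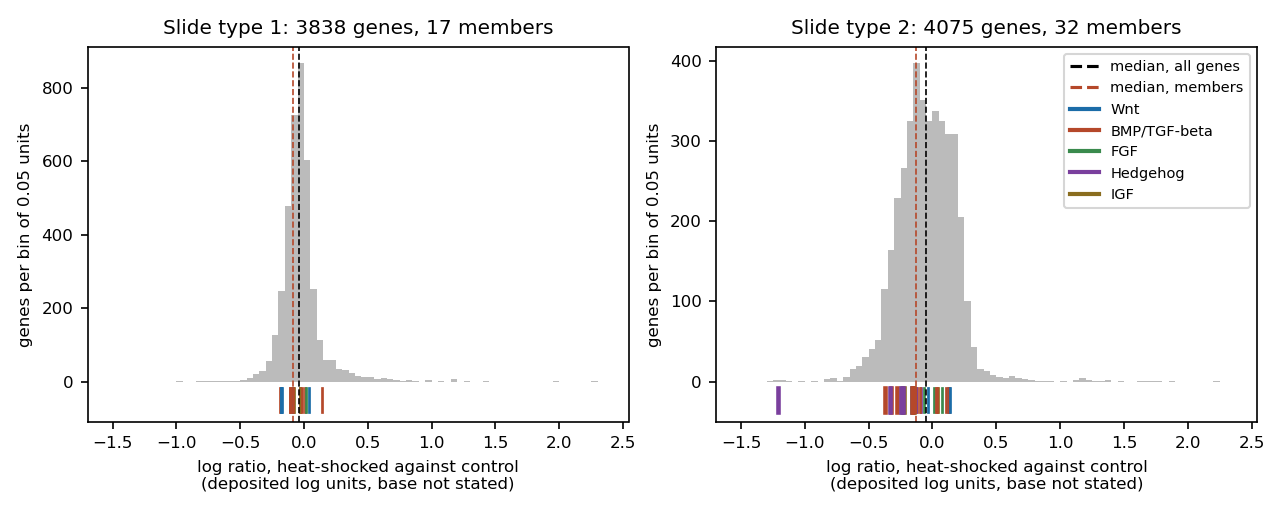
Number of genes per bin of 0.05 units against the log ratio (deposited log units) on slide type 1 (left) and slide type 2 (right), with members as coloured marks under the bars. Dashed lines are the medians of all genes (black) and of members (red). The members of slide type 2 lie within the main body of genes (−0.37 to 0.14) except Gas1 at −1.21.

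Among the members, 7 were on both slide types, on probes that share 0 clone accessions. Smad4, at −0.32 on slide type 2, stood at −0.24, 0.00 and −0.10 on slide type 1 (mean −0.11 ± 0.12, SD, n = 3, adjusted p = 0.31). Igf2 stood at −0.06, −0.24 and 0.20 there, on both sides of 0 (mean −0.03 ± 0.22, SD, n = 3, adjusted p = 0.85). So neither of the 2 members of the 7 that passed on slide type 2 passed on slide type 1. Bmpr1a stood at −0.09 on slide type 1 and −0.14 on slide type 2, and Fzd3 at −0.09 and −0.03. Tgfbrap1, a vesicle tethering protein, stood at −0.02 and 0.11. The widest gap was that of Smad4 (slide type 2 minus slide type 1, −0.21 units), and the difference between slide types was not tested.

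Many of these values differed between the channel orders. Of the 13 members that passed on slide type 2, 9 had means below 0 in both channel orders and 4 (Ctnnbl1, Fgfr1op2, Igf2r and Smad3) had them on opposite sides. Below 0 on all 12 arrays were 3 of 32 members (Gas1, Smad5 and Bmpr2), against 1.84% of all genes of that slide type, and 0 members lay above 0 on all 12 (1.25% of genes). On slide type 1 no member lay on 1 side on all 12 arrays (3.67% of genes did so above 0 and 3.28% below). There, Bmp15, Igf1r and Wnt6 lay on 1 side in all 6 arrays of one channel order and on the opposite side in all 6 of the other, as did 5.52% of genes. On slide type 2 no member did so (2.09% of genes). With 1 channel order alone, Gas1 passed and no other member of slide type 2 did, where 0.147% of all genes passed on the negative side with channel 1 and 0.27% with channel 2. The means given here weight both orders equally, with 6 arrays each.

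**Figure D4:**
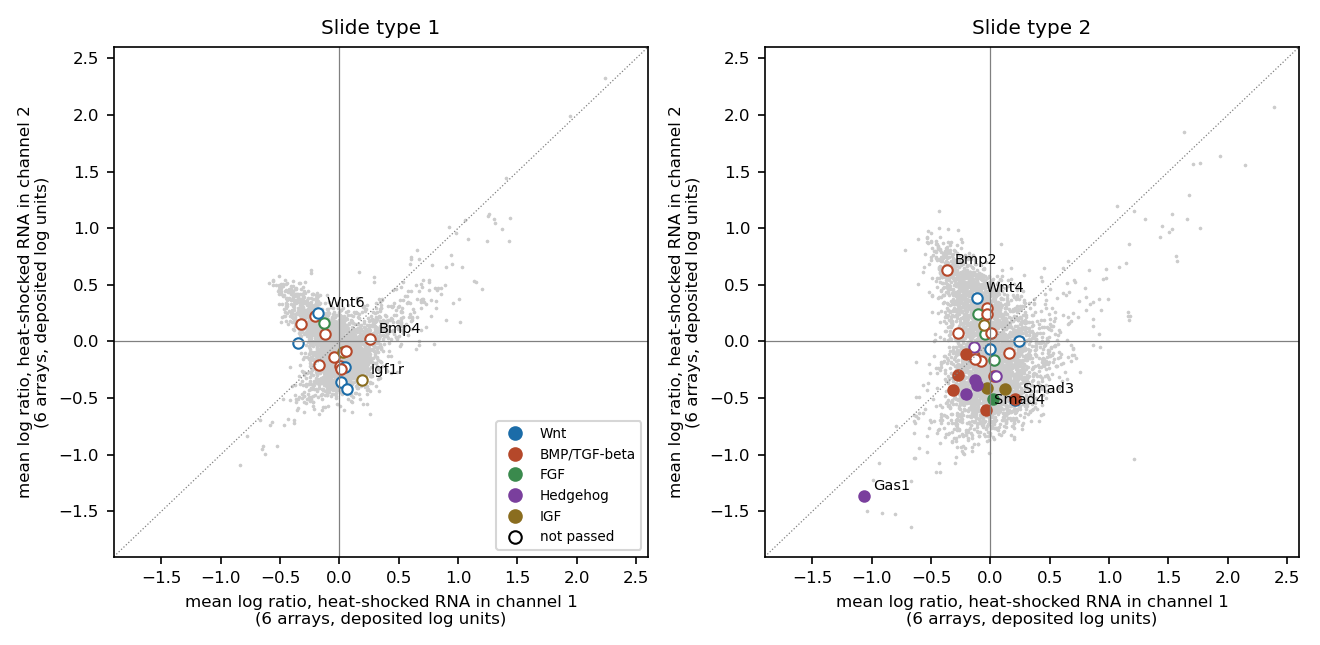
Mean log ratio (deposited log units) over 6 arrays that held heat-shocked RNA in channel 2 against the mean over 6 that held it in channel 1, for all genes (grey) and members (coloured, filled where the test was passed), on slide type 1 (left) and slide type 2 (right). The dotted line marks equal values in both orders. Gas1 (−1.06 and −1.37) lies near the line, while Smad3 (0.20 and −0.51) and Bmp2 (−0.37 and 0.63) lie away from it.

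Other genes of the same pathways, taken from lists of regulators, targets and processing enzymes, were measured 49 times on slide type 1 and 55 times on slide type 2. On slide type 1, 3 passed above 0 and 3 below, where 5.73% and 5.65% of all genes did (median −0.04, as for all genes). On slide type 2, 7 passed above 0 and 25 below, where 18.5% and 31.9% of all genes did (median −0.11, against −0.05 for all genes). These counts moved with the scaling: 13 above and 18 below with arrays centred on probes with 1 symbol (30.7% and 21.1% of all genes), 2 and 11 with arrays scaled to a common spread (5.18% and 13.2%), and 1 and 2 without centring (1.87% and 1.6%). Without centring, Tgif1, Pofut1 and Igfbp5 kept their calls on that slide type, and Apc, Id1 and Ncstn on slide type 1. With 1 channel order alone, Tgif1 in channel 2 was the sole one of the 32 to pass on slide type 2. By list on slide type 2, those on the negative side were 7 of 11 FGF, 4 of 11 Notch, 4 of 10 Wnt, 4 of 7 Hedgehog, 4 of 8 IGF and 2 of 8 BMP and TGF-beta genes. Those on the positive side were 2, 1, 1, 0, 1 and 2 in the same order. The share of all genes was 31.9% on the negative side and 18.5% on the positive. Without centring, the FGF, Notch, Wnt and Hedgehog lists had 0 on the negative side.

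The BMP and TGF-beta list held the highest and the lowest mean of all these genes. Id1, a target of BMP signalling that blocks differentiation factors, stood at 0.47, 0.79 and 0.84 on slide type 1, and above 0 on all 12 arrays. Its mean was 0.70 (adjusted p = 0.00027). Tgif1, a corepressor of Smad activity, stood at −0.85, −0.81 and −0.84 on slide type 2, below 0 on all 12 arrays (mean −0.83, adjusted p = 9.53e-09). Skil, another Smad corepressor, stood at 0.32, 0.32 and 0.23 (mean 0.29, adjusted p = 0.00067), with channel orders of 0.06 and 0.52. The extracellular protein Fstl1 stood at −0.39, −0.45 and −0.19 (mean −0.34, adjusted p = 0.00043), with channel orders of −0.22 and −0.46. The BMP target Id2 stood at 0.16, 0.24 and 0.13 (mean 0.18, adjusted p = 0.018) and did not pass without treatment 1 (0.18, adjusted p = 0.081) or 3 (0.20, adjusted p = 0.072). The channel orders of Id2 were 0.33 and 0.02. Its relative Id3 did not pass at −0.11 (adjusted p = 0.12), with channel orders on opposite sides (0.42 and −0.65).

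In the Hedgehog list, the ligand coreceptor Cdon stood at −0.28, −0.28 and −0.18 (mean −0.25, adjusted p = 0.0024). Prkar1a, the regulatory subunit of the kinase that primes Gli proteins for processing, stood at −0.27, −0.30 and −0.28 (mean −0.28, adjusted p = 0.00076) on slide type 2, but at −0.12 on slide type 1 (adjusted p = 0.25). Spop, a ubiquitin ligase adaptor that acts on Gli proteins, stood at −0.11, −0.54 and −0.17 (mean −0.28, adjusted p = 0.0057), with treatment 2 well below the others. The catalytic subunit Prkaca stood at −0.15 (adjusted p = 0.033) and did not pass without treatment 1 (−0.15, adjusted p = 0.17) or 3 (−0.17, adjusted p = 0.14). Cdon lay below 0 in both channel orders (−0.18 and −0.32), whereas Spop lay near 0 in one of them (−0.02 and −0.53) and Prkar1a on opposite sides (0.03 and −0.60). None of the 8 Hedgehog list genes of slide type 1 passed, the ligand Dhh standing at −0.14 (adjusted p = 0.17).

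The FGF list held the highest count on the negative side. The heparan sulfate carrier Gpc1 stood at −0.47, −0.58 and −0.46 (mean −0.51, adjusted p = 4.73e-06), with channel orders of −0.11 and −0.90. Etv5, a transcription factor induced by FGF signalling, stood at −0.45, −0.44 and −0.28 (mean −0.39, adjusted p = 8.73e-05), and the pathway inhibitor Spred1 at −0.33, −0.31 and −0.33 (mean −0.32, adjusted p = 0.00029). Another inhibitor, Spry4, lay on the positive side at 0.35, 0.17 and 0.19 (mean 0.24, adjusted p = 0.0041), with channel orders on opposite sides (−0.07 and 0.54). The kinase gene Braf stood at 0.33, 0.41 and 0.02 (mean 0.25, adjusted p = 0.0071), with treatment 3 near 0. On slide type 1 Braf stood at 0.0007 over 2 probes (adjusted p = 0.998). Sdc1, another heparan sulfate carrier and measured on slide type 1, stood at −0.30, −0.24 and −0.32 (mean −0.29, adjusted p = 0.0086), below 0 on all 12 arrays. Without treatment 1, neither Sdc1 (−0.28, adjusted p = 0.081) nor Spry4 (0.18, adjusted p = 0.088) passed.

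Of the Wnt list, Ccnd1, the cyclin D1 gene and a target of beta-catenin, stood at −0.37, −0.47 and −0.36 (mean −0.40, adjusted p = 5.01e-05). The Wnt coreceptor Ryk stood at −0.24, −0.16 and −0.22 (mean −0.21, adjusted p = 0.0067) on slide type 2 and at 0.08 on slide type 1 (adjusted p = 0.46). The destruction complex kinase Gsk3b stood at −0.08, −0.23 and −0.21 (mean −0.17, adjusted p = 0.024), with channel orders on opposite sides (0.19 and −0.53), and at −0.05 on slide type 1 (adjusted p = 0.76). The beta-catenin coactivator Bcl9, measured on slide type 1, was even over treatments, at −0.31, −0.29 and −0.30 (mean −0.30, adjusted p = 0.0057). The destruction complex scaffold Apc stood at 0.23, 0.32 and 0.21 (mean 0.25, adjusted p = 0.017) on slide type 1, but at −0.08 on slide type 2 (adjusted p = 0.23), where it also had 2 probes. Without 1 treatment, some of these calls were lost: Ryk without treatment 1 (−0.19) or 3 (−0.20), Gsk3b without treatment 2 (−0.14) or 3 (−0.15), Bcl9 without treatment 1 (−0.30), and Apc without treatment 1 (0.26) or 2 (0.22).

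Notch receptors and ligands were not among the single-symbol probes, so this pathway was seen through its enzymes and nuclear partners alone. Pofut1, which adds O-fucose to Notch receptors, stood at 0.54, 0.43 and 0.67 (mean 0.55, adjusted p = 3.7e-06), above 0 on all 12 arrays. The fucose-extending enzyme Mfng lay on the opposite side at −0.33, −0.33 and −0.24 (mean −0.30, adjusted p = 0.00055). Its channel orders differed (−0.05 and −0.55), and 7 of 12 arrays were below 0. Of the gamma-secretase subunits, Psenen stood at −0.35, −0.32 and −0.20 (mean −0.29, adjusted p = 0.00091) on slide type 2 and Ncstn at 0.18, 0.20 and 0.28 (mean 0.22, adjusted p = 0.03) on slide type 1. Ncstn did not pass when any 1 treatment was left out (0.19 to 0.24, adjusted p of 0.071 to 0.12). The DNA-binding partner Rbpj did not pass at −0.08 (adjusted p = 0.4).

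In the IGF list, the IGF binding protein gene Igfbp5 stood at −0.54, −0.65 and −0.53 (mean −0.57, adjusted p = 1.29e-06) and Igfbp4 at −0.39, −0.50 and −0.15 (mean −0.35, adjusted p = 0.00061). Plagl1, an imprinted transcription factor gene, stood at −0.42, −0.41 and −0.39 (mean −0.41, adjusted p = 3.37e-05). The kinases downstream of the receptor both lay below 0, with Akt1 at −0.41, −0.44 and −0.37 on slide type 1 (mean −0.41, adjusted p = 0.001) and Akt2 at −0.34, −0.47 and −0.31 on slide type 2 (mean −0.37, adjusted p = 0.00012). Foxo1, a transcription factor that these kinases restrain, stood at 0.32, 0.21 and 0.31 on slide type 2 (mean 0.28, adjusted p = 0.001) and at 0.00 on slide type 1 (adjusted p = 0.99). The imprinted RNA H19, a neighbour of Igf2, did not pass on either slide type (0.08 and, over 7 probes, −0.05).

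**Figure D5:**
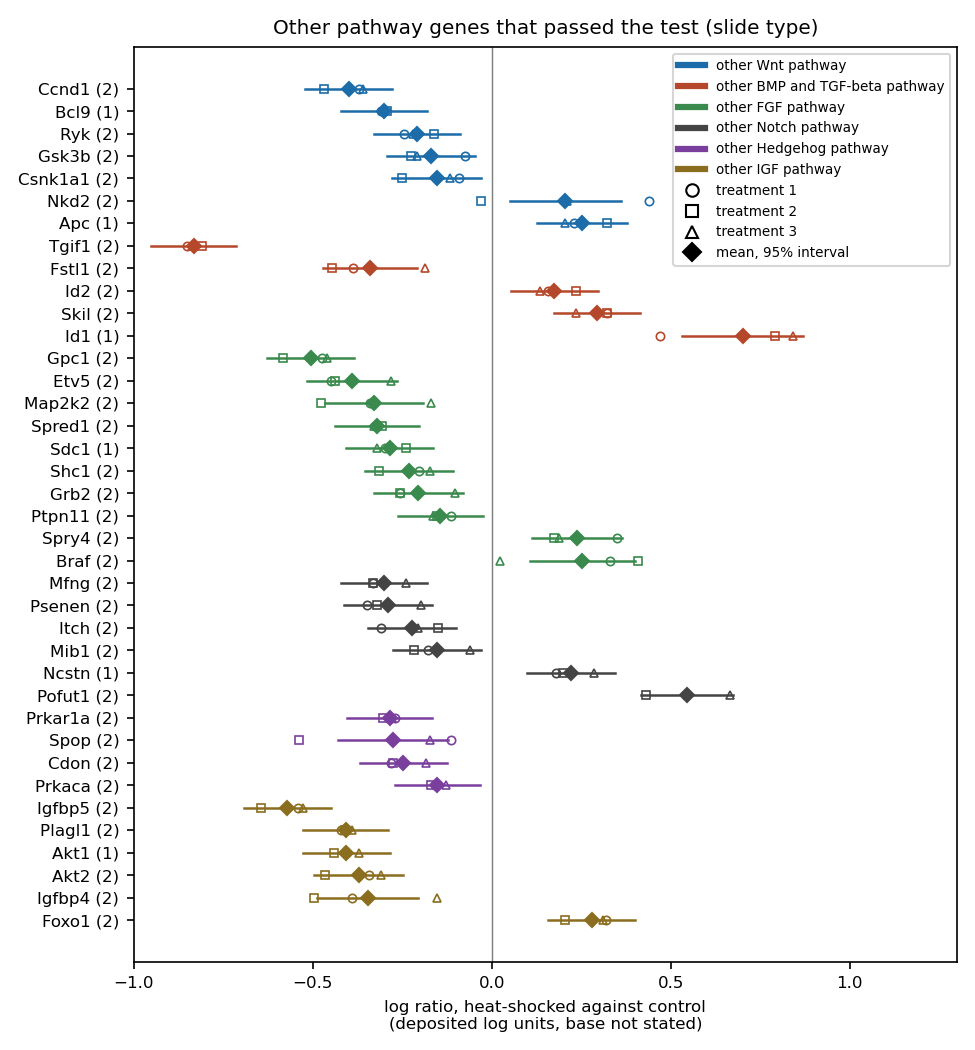
Log ratios (deposited log units) of the 38 other pathway genes that passed the test, by list, with the slide type in parentheses. Open symbols are the 3 treatments, diamonds their mean and bars the 95% interval from limma. Id1 (0.70) and Pofut1 (0.55) lie farthest to the right and Tgif1 (−0.83) farthest to the left, while 28 of the 38 lie left of 0 under the centring shown. With arrays centred on probes with 1 symbol, 18 other pathway genes of slide type 2 passed left of 0 and 13 right of it.

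Markers of cell types in the embryo were few on these probes. Of the neural markers, 1 of 2 on slide type 1 passed (Tubb3, −0.21, adjusted p = 0.036), and on slide type 2 the 1 trophoblast marker measured did (Krt18, −0.19, adjusted p = 0.021). On the negative side, 5.65% of all genes passed on slide type 1 and 31.9% on slide type 2, so these counts are too small to read. None of 4 erythroid, 4 yolk sac endoderm, 1 endothelial and 1 mesenchyme marker values passed, nor any of the 4 trophoblast values of slide type 1, and no heart muscle marker was measured. The part of cell type shares in the values above was not tested, and the labelled tissue could not be checked against marker levels.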

How the data were processed

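The values are log ratios of heat-shocked against control RNA that the authors deposited as a processed table per slide type, treated here as a score because no source used here gives the log base, the numerator, the background correction or the normalization. Each table held 7680 probes with 0 missing values. Probes were named from the platform annotation: 4749 and 4935 probes (slide types 1 and 2) carried 1 symbol, 227 and 275 several, and 2704 and 2470 none. Dim and saturated spots could not be recognised, since spot intensities were not used.

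The labels gave the channel that held heat-shocked RNA, and the sign was turned on arrays where this was channel 2. Each array was centred on its median. Within a slide type, the 4 arrays of 1 treatment (both channel orders, with and without a suffix in the slide code whose meaning is not given) were averaged, each order with equal weight. The 3 treatments served as replicates. Treatment numbers come from the labels. A gene's value is the mean of its single-symbol probes. Changes were tested two-sided with limma 3.58.1 in R 4.3.3 (lmFit on an intercept, eBayes, Benjamini-Hochberg over all genes of a slide type, threshold 0.05). limma moderates each gene's spread with one pooled over the slide type. The limma step alone was checked on simulated data, with independent normal values per gene and treatment. Sign turning, centring and the averaging of arrays and probes were not part of that check. With 3 treatments per slide type, their number limits the precision.

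Members, gene lists and tests were chosen with earlier results of these data known. Genes named were the members that passed with 1 sign in all 3 treatments (at most 20 per side), members fixed by name, members over 0.3 units apart on the 2 slide types (none were), and up to 3 genes per other list with the smallest p. Others given with values were chosen after their values were seen. Of the members fixed by name, Smad7, Tgfb1, Fgf8, Notch1, Dll1 and Jag1 were not on single-symbol probes. Members were left out of the other lists. RefSeq's gene table held 6901 of 6971 Entrez IDs, each with the same symbol. Figures were drawn with matplotlib 3.10.9.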

Additional observations from a re-analysis of the deposited data

Results flagged for a closer look

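Among 92 sets of 6 arrays (1 gene, slide type and channel order each), 4 held an array far from the other 5, where chance gives about 1 in 20. With heat-shocked RNA in channel 2, Gas1 on slide type 2 read −0.95 on the suffixed array of treatment 1, against −1.57 to −1.35 on the others. In the same channel order, Gli3 read −0.88 on the array of treatment 2 without the suffix, against −0.25 to 0.03. With heat-shocked RNA in channel 1, Id1 on slide type 1 read 0.15 on the suffixed array of treatment 1, against 0.64 to 0.91. With it in channel 2, Smad4 on slide type 1 read −0.63 on the array of treatment 1 without the suffix, against −0.24 to −0.07.

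Igf1r on slide type 1 lay above 0 on all 6 arrays with heat-shocked RNA in channel 1 (mean 0.19) and below 0 on all 6 with it in channel 2 (mean −0.34), a difference of 0.53 units. This difference was not tested.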

How the results depend on the processing

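Of 598 values recomputed under 13 other settings for 46 results, 418 kept their direction and their side of the threshold, 147 fell short of it, 7 newly passed and 26 changed sign. Gas1 passed under each of the 13 settings (−1.37 to −1.06, adjusted p at most 0.007), and so did Id1 (0.63 to 1.00). The other 12 members that passed lost their call under at least 3 settings, among them no centring and each channel order alone. The cause was not tested.

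On slide type 2, members on the negative side numbered 1 without centring (1.6% of all genes) and 8 with centring on probes with 1 symbol (21.1%). They numbered 5 with arrays scaled to a common spread (13.2%) and 8 to 12 with 1 treatment left out (22.9% to 30.1%). With either channel order alone there was 1 (0.147% of all genes with channel 1 and 0.27% with channel 2). On the positive side members numbered 5 with centring on probes with 1 symbol (30.7% of all genes) and 1 with suffixed arrays only (14.2%). With 1 treatment left out they numbered 0 to 3 (7.19% to 24.1%). The members' median was −0.049 without centring, −0.057 with centring on probes with 1 symbol and −0.048 with channel 1 alone. With the treatment as a replicate block over 12 arrays (consensus correlation −0.239), 14 members passed on the negative side (35.3% of all genes) and 1 on the positive (15.9%). Of the 13, 11 kept their call. Ctnnbl1 and Igf2r lost it, and Acvr1b, Bmpr1a, Tgfbr1 and, above 0, Axin1 gained one. A negative consensus correlation lowers the standard error below that of 12 independent arrays, so calls gained in this setting carry less weight. On slide type 1 (−0.050), the replicate block gave 1 on the positive side (Bmp4) and 1 on the negative (Acvr2b), against 7.24% and 11.2% of all genes.

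On slide type 1, heat-shocked RNA in channel 1 alone gave 1 positive and 3 negative (10.6% and 11.2% of all genes), and channel 2 alone 1 negative (3.26%). Without centring, the median of all genes moved by 0.30 on slide type 1 and 0.08 on slide type 2. The slide type 1 member median was then 0.22, and it was −0.044 with centring on probes with 1 symbol, 0.0036 with channel 1 alone, −0.047 with arrays without the suffix, and −0.071 to −0.067 with 1 treatment left out.

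Signs changed without centring for Bcl9 (0.0026), Ctnnb1 (0.13), Fgfr1 (0.014), Fzd7 (0.13), Igf1r (0.23), Sdc1 (0.018) and, on slide type 1, Igf2 (0.27) and Smad4 (0.19). With channel 1 alone they changed for Ctnnb1 (0.017), Ctnnbl1 (0.20), Fgfr1 (0.028), Fgfr1op2 (0.026), Fzd7 (0.067), Gli3 (0.049), Gsk3b (0.19), Igf1r (0.19), Igf2r (0.12), Prkar1a (0.031), Smad3 (0.20) and, on slide type 1, Igf2 (0.028) and Smad4 (0.017). Centring on probes with 1 symbol turned Fgfr1 (0.0066) and slide type 1 Igf2 (0.0084), and suffixed arrays alone turned Gli3 (0.015). With 1 treatment left out, Fgfr1 ranged from −0.13 to 0.034 and slide type 1 Igf2 from −0.15 to 0.068, both above 0 without treatment 2.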
